A study of Mus musculus with 6 samples.

Results

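Cytochrome P450 genes are described here in the RNA of mouse fat cells, with Cyp2e1 foremost. The set holds 8 genes, which are Cyp2e1, Cyp2f2, Cyp1b1, Cyp4b1, Cyp4v3, Cyp27a1 and Cyp7b1 and the P450 reductase gene Por, out of 35122 genes in the table. Cyp2e1 was selected on its measured values, because it was abundant and varied between libraries unlike other liver-type genes, so its values are given as a description with no test. The other 7 were listed beside it by symbol as P450 genes of fat. All 8 were found in the table, and the 7 that are P450 genes belong to 102 protein-coding P450 genes listed there.

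RNA-seq was performed on epididymal adipocytes of 3 control and 3 aPU.1KO mice, 1 library per mouse, to ask how gene expression differs when adipocytes lose PU.1, a DNA-binding regulator. Control mice carried PU.1 fl/fl alleles, in which exon 5 of Spi1, the gene of PU.1, lies between loxP sites but is present. The aPU.1KO mice carried the same alleles and AdipoqCre, a Cre recombinase driven by the promoter of the adipocyte gene for adiponectin. All mice were C57BL/6 males on chow, aged 10 to 11 months by the labels and over a year by the study's text, and the controls were littermates. The RNA came from the floating fraction after collagenase digestion, which is enriched for adipocytes but can carry other cells, and Cre acts in adipocytes whereas macrophages also express Spi1. In such bulk RNA, fewer cells of a type and less RNA per cell cannot be told apart. The labels do not say whether mice were handled on different days.

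Cytochrome P450 enzymes are heme proteins that insert an oxygen atom into fatty acids, sterols, steroids, retinoids and foreign compounds. Those in the endoplasmic reticulum take their electrons from the reductase encoded by Por, and those in mitochondria from ferredoxin. Families 1 to 3 are best known for drug and toxicant metabolism in liver, family 4 for fatty acid hydroxylation, and the higher families for sterols, bile acids and vitamins. Cyp2e1 is known in liver as the ethanol-inducible enzyme, which also oxidises acetone and fatty acids, and it is expressed in fat cells as well.

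Promoter sequences are shown for the gene that led the set and for the 2 other members with an unadjusted p under 0.05 in the comparison of the groups, since PU.1 binds DNA. RefSeq promoter windows (GRCm38.p6) were matched for 7 of the 8 genes, all but Cyp7b1. Each line gives the 250 bases before the RefSeq start, 5′ to 3′ on the gene's strand. Capitals mark matches, on either strand, to GAGGAA (a PU.1 core), GCGTG (the core of the xenobiotic response element bound by the aryl hydrocarbon receptor), TATAAA (the core promoter element of the basal machinery) or AGGTCA (the hexamer of nuclear receptors). The windows are chr7:140763569-140763818 on the plus strand for Cyp2e1, chr17:79715062-79715311 on the minus strand for Cyp1b1 and chr5:135688895-135689144 on the plus strand for Por.
Cyp2e1: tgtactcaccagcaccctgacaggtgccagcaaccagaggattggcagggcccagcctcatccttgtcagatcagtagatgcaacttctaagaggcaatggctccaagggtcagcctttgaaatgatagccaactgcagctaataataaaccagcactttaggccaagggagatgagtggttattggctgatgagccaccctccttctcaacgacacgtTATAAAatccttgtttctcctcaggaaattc
Cyp1b1: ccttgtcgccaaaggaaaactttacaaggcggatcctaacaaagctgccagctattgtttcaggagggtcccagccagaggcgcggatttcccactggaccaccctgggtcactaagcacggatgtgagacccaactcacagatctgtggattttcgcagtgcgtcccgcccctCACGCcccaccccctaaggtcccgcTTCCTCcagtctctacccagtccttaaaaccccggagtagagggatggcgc
Por: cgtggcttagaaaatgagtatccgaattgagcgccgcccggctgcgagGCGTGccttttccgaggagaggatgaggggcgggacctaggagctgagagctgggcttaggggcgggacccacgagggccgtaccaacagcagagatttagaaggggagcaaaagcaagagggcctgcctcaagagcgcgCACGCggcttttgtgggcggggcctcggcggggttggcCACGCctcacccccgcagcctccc
The Cyp2e1 window held 1 match, a TATAAA from 31 to 26 bases before the start, and such a match stood in 12.4% of 32851 windows of this length. The Cyp1b1 window held 1 GAGGAA on the other strand, 51 to 46 bases before the start, and 1 GCGTG on the other strand, 76 to 72 bases before it. GAGGAA was found in 23.3% of all windows and GCGTG in 28.2%. The Por window held 3 matches to GCGTG, and its start, like that of Cyp2e1, lies inside the annotated gene, which has several transcripts. Among the other 4 windows, Cyp4v3 held 1 GAGGAA and 1 GCGTG and Cyp2f2 held 1 AGGTCA, a match present in 14.0% of windows. These are matches of letters and not sites of binding, and the motifs do not overlap in the windows shown.

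Levels are given as CPM, the counts of a gene scaled to a common library size with TMM factors. The deposited counts per library ran from 20550252 to 24310144 in 5 libraries and to 69283842 in control mouse 1. Spi1 was at 24.3, 6.35 and 26.7 CPM in control mice 1 to 3 and at 3.20, 1.22 and 4.17 CPM in aPU.1KO mice 1 to 3. Control mouse 2 stood apart from the other control mice. Its 15 macrophage markers summed to 486 CPM against 1616 and 1547 CPM in control mice 1 and 3, and to 331, 245 and 313 CPM in the aPU.1KO mice. Results on the members that changed without this mouse are given both ways below, and the lists by their counts of calls. The fraction carried the mature adipocyte markers at a high level, with 15 markers summing to between 44132 and 51133 CPM in control mice and between 56607 and 66812 CPM in aPU.1KO mice.

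Cyp2e1 was the most abundant P450 gene of these adipocytes on average and varied several-fold between mice of a group. Cyp2e1 (ENSMUSG00000025479, chromosome 7, 140763739 to 140774987, plus strand, GRCm38) was at 409, 928 and 142 CPM in control mice 1, 2 and 3, and at 1371, 3156 and 711 CPM in aPU.1KO mice 1, 2 and 3. The lowest and highest mice differed 6.52-fold within the control group and 4.44-fold within the aPU.1KO group. The groups overlapped, since aPU.1KO mouse 3 lay below control mouse 2. Group means were 493 ± 399 CPM (SD, n = 3) for control and 1746 ± 1265 CPM (SD, n = 3) for aPU.1KO, a ratio of 3.54. The fitted log2 fold change of aPU.1KO over control was 1.82 ± 0.77, where ± after a fold change is the standard error (SE) of the fit. Leaving out control mouse 2 gave 2.65 and leaving out aPU.1KO mouse 2 gave 1.08, these being the mice with the highest Cyp2e1 of their groups.

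**Figure D1:**
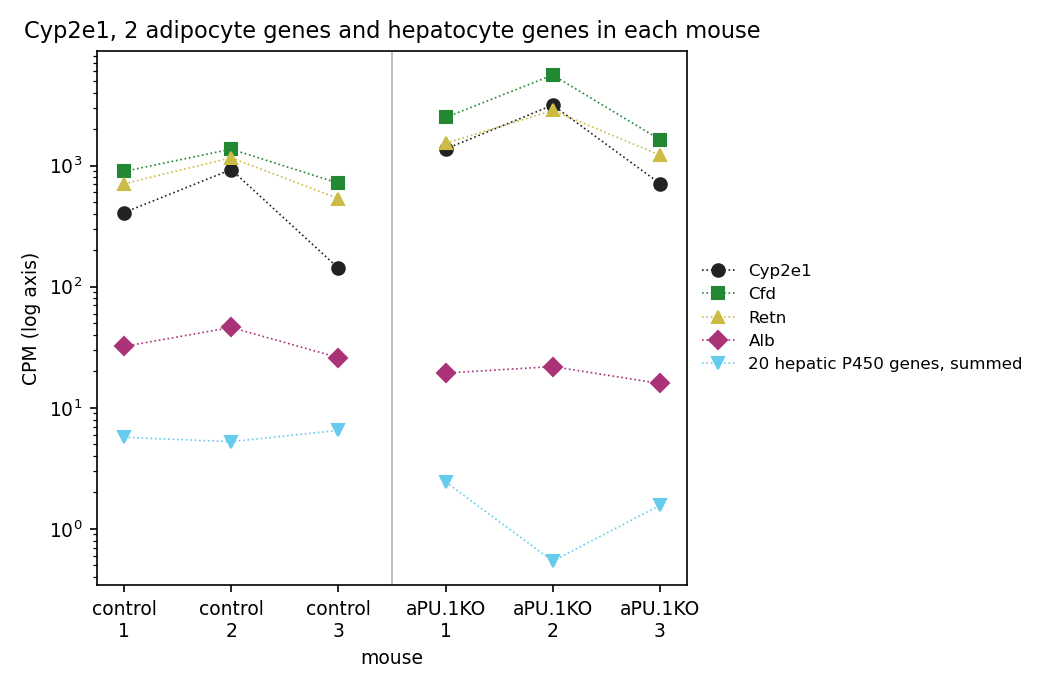
CPM on a log axis for Cyp2e1, the adipocyte genes Cfd and Retn, the hepatocyte gene Alb and the sum of 20 hepatic P450 genes in each of the 6 mice, with dotted lines to guide the eye. Alb has the order of Cyp2e1 within each group and is lower in aPU.1KO mice. Cyp2e1 runs from 142 to 3156 CPM and is highest in mouse 2 of both groups, and the hepatic P450 sum runs from 0.54 to 6.50 CPM.

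Cyp2e1 made up a changing share of all P450 counts. It took 44.1%, 65.1% and 22.0% of the counts of the 102 P450 genes in control mice 1, 2 and 3 and 72.5%, 87.3% and 59.3% in aPU.1KO mice 1, 2 and 3. Counting error was small, with 95% Wilson intervals of at most 0.635 percentage points to either side, which cover counting error alone. The share again overlapped between the groups through control mouse 2 and aPU.1KO mouse 3. The other 95 P450 genes outside the set summed to between 224 and 249 CPM in control mice and between 216 and 245 CPM in aPU.1KO mice.

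The spread of Cyp2e1 between mice of a group had a standard deviation of 1.22 on the log2 CPM scale. It ranked 64th from the top among 11765 genes with a mean log2 CPM of at least 1, for which the median was 0.158. Among the 1828 genes with a mean of at least 100 CPM it ranked 7th, behind Mmp12, Gpnmb, Mrc2, Mpeg1, Cxcl1 and Ctss, of which Mmp12, Gpnmb, Mpeg1 and Ctss are well expressed in macrophages. Por, the electron donor of the same enzymes, had a standard deviation of 0.160 and ranked 738th of the 1828.

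The order of the mice was the same in both groups for Cyp2e1, with mouse 3 lowest and mouse 2 highest. The mice are numbered in accession order, and the labels do not say which of them shared a litter, so a litter effect on this order was not tested. This order was found in 895 of the other 13924 genes tested (6.43%), and among the other 32 tested genes of the P450 family with Por it was found in 1, Cyp1a1. Cyp1a1, the classical target gene of the aryl hydrocarbon receptor, was at 0.757, 1.18 and 0.159 CPM in control mice 1 to 3 and at 4.27, 9.27 and 0.284 CPM in aPU.1KO mice 1 to 3. Its groups overlapped as those of Cyp2e1 did, with a log2 fold change of 2.71 (SE 1.10, Benjamini-Hochberg adjusted p = 0.182 in the quasi-likelihood test of edgeR).

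Genes whose log2 CPM followed that of Cyp2e1 most closely were looked for among 11764 genes over the 6 mice, which share their libraries. Over all mice the highest Pearson correlations were those of Phf3 (0.995), Ralgapa2 (0.995), Rab13 (0.995), Gpx3 (0.993) and Prkag2 (0.993). Gpx3, the secreted glutathione peroxidase, was at 187, 290 and 127 CPM in control mice 1 to 3 and at 365, 593 and 284 CPM in aPU.1KO mice 1 to 3. Ralgapa2, a subunit of a GTPase-activating complex for Ral proteins, ran from 109 to 198 CPM, so its range was far narrower than that of Cyp2e1. After the group means were removed, the highest were St3gal4 (0.997), Adamts9 (0.996), Gm10778 (0.995), mt-Nd4l (0.995) and Rif1 (0.995). With 6 mice and this many genes, such values describe the mice measured and were not tested.

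Of the 15 adipocyte markers, 4 had the same order of mice as Cyp2e1, which were Retn, Cfd, Car3 and Slc2a4. The correlations of the 15 within groups ran from -0.699 for Lep to 0.963 for Retn. Retn, which encodes resistin, was at 708, 1160 and 535 CPM in control mice 1 to 3 and at 1531, 2852 and 1222 CPM in aPU.1KO mice 1 to 3. Cfd, which encodes the adipokine adipsin, was at 896, 1367 and 716 CPM in control mice and at 2498, 5595 and 1640 CPM in aPU.1KO mice. Their correlations with Cyp2e1 were 0.977 and 0.945 over the 6 mice and 0.963 and 0.901 within groups. Lep, the leptin gene, had the opposite order in both groups, at 4674, 4551 and 5029 CPM in control mice 1 to 3 and at 2855, 1565 and 3949 CPM in aPU.1KO mice 1 to 3.

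Cyp2e1 was picked as unlike other liver-type genes, so the hepatic P450 genes are given for description. The 20 listed hepatic P450 genes summed to 5.70, 5.25 and 6.50 CPM in control mice 1 to 3 and to 2.44, 0.54 and 1.56 CPM in aPU.1KO mice 1 to 3. The sums rest on 12 to 48 counts in the aPU.1KO libraries. Of the 20, 13 were at 0 in every aPU.1KO library, of which 1 was at 0 in the control libraries too and 8 had more than 3 counts in every control library. Cyp3a11, a main drug-metabolising enzyme of liver, was at 0.578, 0.657 and 0.754 CPM in control mice and at 0 in all 3 aPU.1KO mice. Against a floor of 3 counts over the aPU.1KO group, Cyp3a11 was at least 13.9-fold lower and Cyp2c29, another hepatic P450, at least 10.1-fold lower. The 2 other tested genes of the list with the largest fitted changes were Cyp2c70, at -1.07 (SE 0.68, edgeR adjusted p = 0.359), and Cyp2b10, at -0.70 (SE 0.72, adjusted p = 0.578).

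Hepatocyte markers other than P450s were low. The 20 listed summed to 68.5, 88.2 and 61.0 CPM in control mice 1 to 3 and to 26.9, 35.5 and 22.5 CPM in aPU.1KO mice 1 to 3. Alb, the albumin gene, was at 32.1, 46.1 and 26.0 CPM in control mice and at 19.4, 21.9 and 15.9 CPM in aPU.1KO mice. Both had the order of mice of Cyp2e1 within each group, over a narrower range, and the opposite direction between the groups. edgeR called 6 of the 17 tested as lower (Apoa1, Ttr, Serpina1c, Fgg, Apob and Cps1), DESeq2 called 17 of the 20, beside 0.237% and 11.0% of all genes. Without control mouse 2 edgeR called 11 of the 17, beside 8.34%. The 6 had at most 6 counts in any aPU.1KO library and passed the filter through the control group, so their calls are no support. The counts of DESeq2 and of the fit without control mouse 2 draw on a list with such genes and are no support either. Itih4 (log2 fold change -0.02) and Serpina3k (-0.54) overlapped between the groups. Apob and Fgb were at 0 in every aPU.1KO library after 1.35 ± 0.04 and 1.25 ± 0.17 CPM (SD, n = 3) in control mice. Their part in the P450 results was not tested.

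Levels were compared between genes per kilobase of exon, since longer transcripts collect more reads. Cyp2e1 was at 190, 430 and 65.9 CPM per kb in control mice 1 to 3 and at 635, 1463 and 329 CPM per kb in aPU.1KO mice 1 to 3. Por followed with a mean of 93.8 CPM per kb over the 6 mice, and it lay below Cyp2e1 in 5 of 6 mice, control mouse 3 being the exception. Cyp4v3 came next with 43.6 CPM per kb, below Por in 6 of 6 mice. Cyp27a1 (17.4 CPM per kb) and Cyp4b1 (17.3 CPM per kb) did not differ beyond their spread, Cyp27a1 being higher in 2 of 6 mice. Cyp1b1 (2.86 CPM per kb) lay below Cyp4b1 in 6 of 6 mice. Cyp1b1 and Cyp2f2 (1.63 CPM per kb) overlapped, with Cyp1b1 higher in 4 of 6 mice. Cyp7b1 was lowest, at 0.221 CPM per kb, in 6 of 6 mice.

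**Figure D2:**
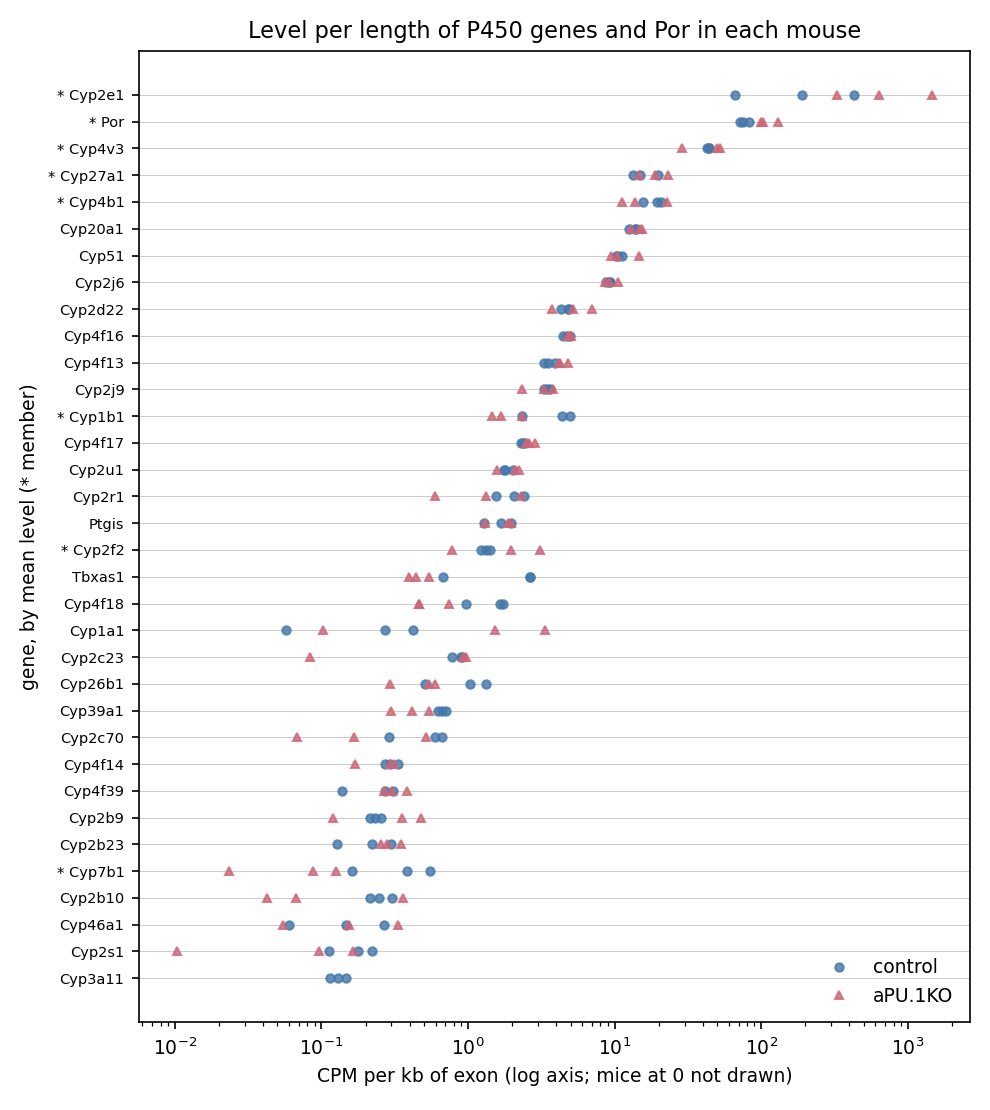
CPM per kilobase of exon on a log axis for 34 genes, the tested P450 genes with Por and Cyp7b1, each point 1 mouse (circles control, triangles aPU.1KO) and members starred. Cyp2e1, Por, Cyp4v3, Cyp27a1 and Cyp4b1 hold the 5 highest means, and Cyp2e1 spreads from 65.9 to 1463 CPM per kb.

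The 5 P450 genes outside the set with the highest level per length were Cyp20a1, Cyp51, Cyp2j6, Cyp2d22 and Cyp4f16, with means from 14.0 down to 4.81 CPM per kb. Cyp51, which demethylates lanosterol in cholesterol synthesis, was at 49.3, 46.3 and 45.3 CPM in control mice 1 to 3 and at 46.1, 64.5 and 41.7 CPM in aPU.1KO mice 1 to 3. The fitted log2 fold changes of these 5 genes lay between 0.04 and 0.19 with adjusted p from 0.538 to 0.817 by edgeR quasi-likelihood. This order used the union of exons. Per length of the longest annotated transcript Cyp4f13, at 10.1 CPM per kb, lay above Cyp2j6 (9.25), Cyp4f16 (6.58) and Cyp2d22 (5.75).

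The groups were then compared for the other members. Of the 6 that passed the filter on low counts, edgeR quasi-likelihood (Benjamini-Hochberg adjusted p under 0.05) called 0, against 33 of 13925 genes tested overall (0.237%). At an unadjusted p under 0.05 it had 2 of the 6, Por and Cyp1b1, against 25.7% of all genes tested. DESeq2 called the same 2, against 11.0% of the genes to which it gave an adjusted p. The median log2 fold change of the 6 was 0.12 and that of all genes tested 0.01. With 6 genes, these counts do not set the members apart from all genes tested.

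**Figure D3:**
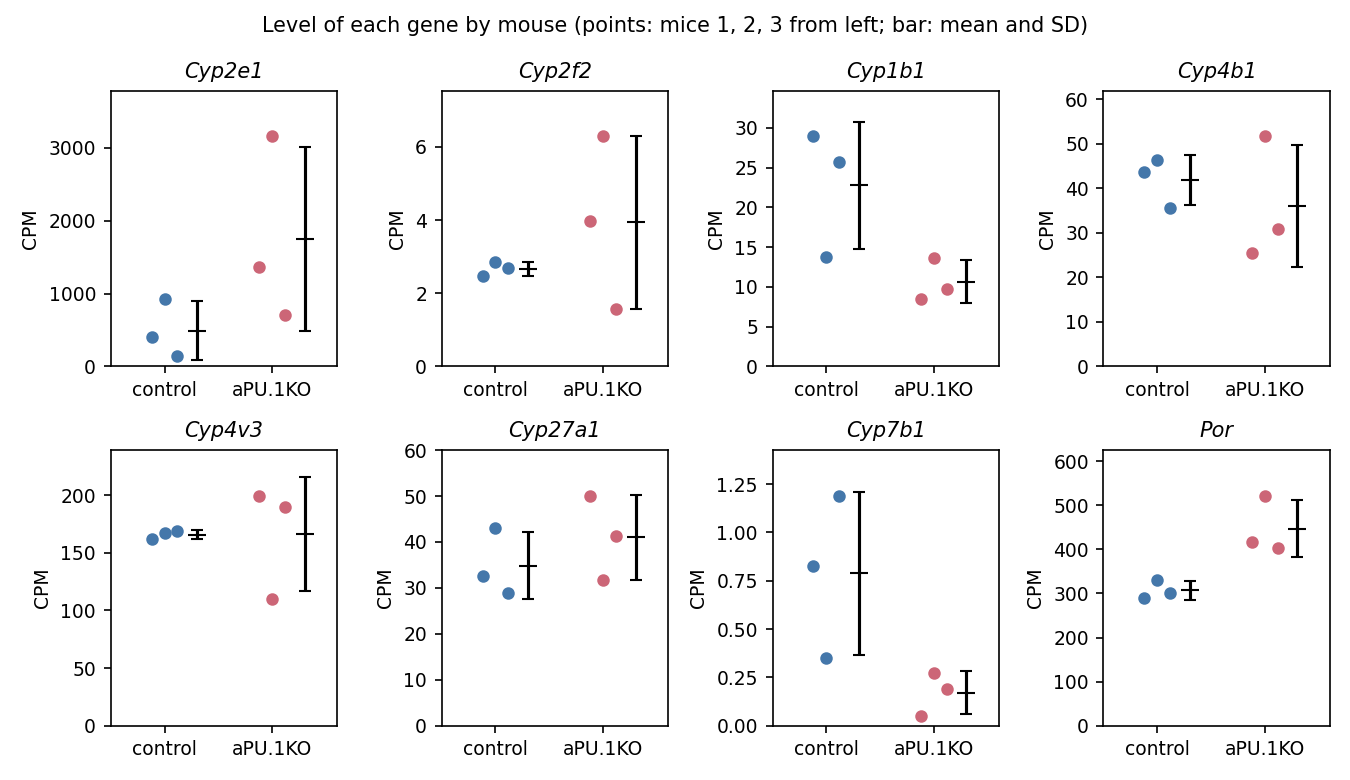
CPM of each of the 8 genes in the 3 control mice and the 3 aPU.1KO mice (points, mice 1 to 3 from left to right) with the mean and SD of each group. Por has all 3 knockout mice above all 3 control mice, Cyp7b1 is lower in every aPU.1KO mouse on few counts, and Cyp1b1 meets at 13.7 CPM in mouse 2 of both groups.

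Por (ENSMUSG00000005514, chromosome 5, 135670033 to 135735326, plus strand) was at 289, 331 and 301 CPM in control mice 1 to 3 and at 416, 522 and 403 CPM in aPU.1KO mice 1 to 3. The groups did not overlap, as was the case with the knockout higher for 16.7% of all genes tested. Its log2 fold change was 0.54 (SE 0.13). The adjusted p was 0.0786 by edgeR quasi-likelihood and 0.0038 by DESeq2. Por did not have the order of mice of Cyp2e1, since control mouse 1 was its lowest control.

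Cyp1b1 (ENSMUSG00000024087, chromosome 17, 79701537 to 79715061, minus strand) oxidises oestradiol and polycyclic aromatic hydrocarbons. It was at 28.9, 13.7 and 25.7 CPM in control mice 1 to 3 and at 8.49, 13.7 and 9.76 CPM in aPU.1KO mice 1 to 3. Control mouse 2 and aPU.1KO mouse 2 were equal to 3 digits, so the groups touched at their edge, and the other mice were apart. Groups with no overlap and the knockout lower made up 15.5% of all genes tested. The log2 fold change was -1.10 (SE 0.31, adjusted p = 0.101 by edgeR quasi-likelihood), and DESeq2 gave an adjusted p of 0.0082. Without control mouse 2 it was -1.37 (SE 0.21, edgeR adjusted p = 0.0166), in a fit that called 8.34% of all genes tested.

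Macrophage markers and progenitor and fibroblast markers had lower sums in aPU.1KO mice, where Cyp1b1 had a lower mean. Within that group the orders of mice differed. Cyp1b1 was highest in mouse 2, the macrophage sum was lowest in mouse 2, and the progenitor sum was highest in mouse 3. All tested hepatocyte (17), mesothelial (8) and endothelial (10) markers also had negative log2 fold changes. Macrophage markers had sums of 486 to 1616 CPM in control and 245 to 331 CPM in aPU.1KO mice, and 13 of the 15 had an unadjusted p under 0.05 as lower, with 1, Mrc1, called by edgeR, beside 25.7% and 0.237% of all genes. The 15 progenitor and fibroblast markers summed to between 2008 and 2536 CPM in control mice and between 1096 and 1602 CPM in aPU.1KO mice, and 2 of them, Pdgfrb and Fbn1, were called lower by edgeR. Pdgfra, the defining receptor of these progenitors, was at 38.7, 19.2 and 36.1 CPM in control mice and at 9.25, 10.5 and 12.4 CPM in aPU.1KO mice. Control mouse 2 was the lowest control in both sums, as in Cyp1b1, and without it edgeR called 13 of the macrophage and 6 of the progenitor markers lower, beside 8.34% of all genes. Their part in the Cyp1b1 values was not tested.

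Cyp7b1, the oxysterol hydroxylase that clears the products of Cyp27a1, was the weakest member (ENSMUSG00000039519, chromosome 3, 18071950 to 18243338, minus strand). It had 60, 8 and 30 counts in control mice 1 to 3 and 1, 6 and 4 counts in aPU.1KO mice 1 to 3. In CPM these were 0.826, 0.350 and 1.19 against 0.051, 0.271 and 0.189. The groups did not overlap and the knockout was lower, as for 15.5% of all genes tested, but their edges rest on 8 and 6 counts. Control mouse 2 was the lowest control, as in the macrophage sum, whose part was not tested. Over all 6 mice Cyp7b1 did not pass the filter on low counts and was not tested with edgeR. DESeq2, which kept it, gave a log2 fold change of -2.21 (SE 0.82, adjusted p = 0.0603). Without control mouse 2 it passed the filter, at -2.50 (SE 0.58, edgeR quasi-likelihood adjusted p = 0.0558). Cyp27a1, the mitochondrial sterol hydroxylase (ENSMUSG00000026170, chromosome 1, 74713574 to 74737892, plus strand), was at 32.6, 43.0 and 28.9 CPM in control mice and at 50.1, 31.6 and 41.3 CPM in aPU.1KO mice. Its groups overlapped, with a log2 fold change of 0.24 (SE 0.21, adjusted p = 0.510 by edgeR quasi-likelihood), and with each mouse left out it ran from 0.06 without aPU.1KO mouse 1 to 0.40 without control mouse 2.

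The family 4 members are fatty acid hydroxylases. Cyp4v3 (ENSMUSG00000079057, chromosome 8, 45304944 to 45333216, minus strand) was at 162, 167 and 168 CPM in control mice 1 to 3 and at 199, 109 and 189 CPM in aPU.1KO mice 1 to 3. The control mice were within 1.04-fold of each other, whereas aPU.1KO mouse 2 lay below all of them and the other knockout mice lay above. The log2 fold change was 0.0023 (SE 0.21, adjusted p = 0.996 by edgeR quasi-likelihood). Cyp4b1 (ENSMUSG00000028713, chromosome 4, 115624725 to 115647723, minus strand) was at 43.6, 46.4 and 35.5 CPM in control mice and at 25.5, 51.6 and 30.9 CPM in aPU.1KO mice. Its groups overlapped, with a log2 fold change of -0.22 (SE 0.26, edgeR adjusted p = 0.636), and with each mouse left out it ran from -0.57 without aPU.1KO mouse 2 to -0.03 without aPU.1KO mouse 1. Cyp4v3 shares 313 bases of exon with Gm45753 on the same strand, and Cyp4b1 transcripts match the pseudogenes Cyp4b1-ps1 (94.6% over 315 bases) and Cyp4b1-ps2 (96.4% over 333 bases), so reads there are uncertain in origin.

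Cyp2f2, known from the club cells of the lung airway, where it oxidises naphthalene, was a low-level member (ENSMUSG00000052974, chromosome 7, 27119909 to 27133660, plus strand). It was at 2.47, 2.85 and 2.70 CPM in control mice 1 to 3 and at 3.96, 6.28 and 1.56 CPM in aPU.1KO mice 1 to 3. The control mice were close together and the knockout mice spread 4.02-fold around them. The log2 fold change was 0.57 (SE 0.46, adjusted p = 0.470 by edgeR quasi-likelihood), and it was 0.05 without aPU.1KO mouse 2 and 0.95 without aPU.1KO mouse 3. Its exons overlap those of Gm15883 on the opposite strand over 274 bases, and the strand setting of the library was not given in the sources used here.

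**Figure D4:**
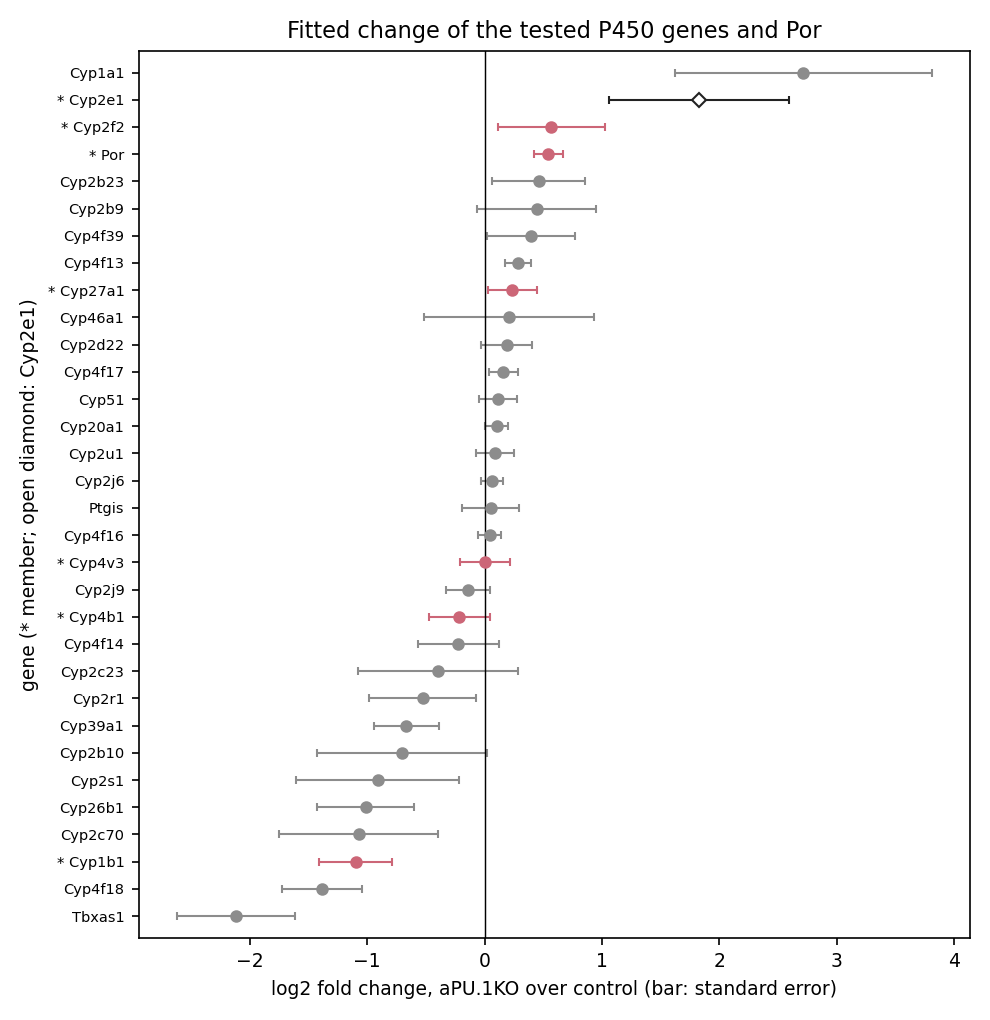
Log2 fold change of aPU.1KO over control with its SE from edgeR for 32 genes, the tested P450 genes with Por, members starred, Cyp2e1 as an open diamond given as a description. Cyp3a11, at 0 in every aPU.1KO mouse, is left out, and the values run from -2.12 for Tbxas1 to 2.71 for Cyp1a1.

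Of the 95 P450 genes outside the set, 26 passed the filter, and edgeR called 0 of them while 7 had an unadjusted p under 0.05, 2 higher and 5 lower, beside 25.7% of all genes tested. DESeq2, which gave 46 of the 95 an adjusted p, called 9, all lower, beside 11.0% of all genes. The median log2 fold change of the 26 tested with edgeR was 0.05. The 9 were Tbxas1, Cyp4f18 and 7 hepatic genes (Cyp2a12, Cyp2c29, Cyp2c50, Cyp2d9, Cyp2d10, Cyp2d26 and Cyp3a11). Of the 7 hepatic genes, Cyp2d9 had 1 count over the aPU.1KO libraries and the others 0. They were kept through the control group, so their DESeq2 calls and the shared direction of these are no support. Without control mouse 2, edgeR called 4 of 27 tested, beside 8.34% of all genes. They were Tbxas1 and Cyp4f18, and also Cyp2c29 and Cyp3a11, which are at 0 in every aPU.1KO library and passed the filter through the control group, so their calls are no support.

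Tbxas1, the thromboxane synthase of platelets and macrophages, was at 24.1, 6.13 and 24.1 CPM in control mice 1 to 3 and at 4.93, 3.62 and 4.03 CPM in aPU.1KO mice 1 to 3. Control mouse 2 lay near the knockout mice, as it did for the macrophage sum. The log2 fold change was -2.12 (SE 0.51, adjusted p = 0.0811 by edgeR quasi-likelihood), and without control mouse 2 it was -2.53 (SE 0.16, adjusted p = 0.0026). Cyp4f18, which hydroxylates leukotrienes in leukocytes, was at 3.21, 1.79 and 3.05 CPM in control mice and at 0.864, 0.859 and 1.37 CPM in aPU.1KO mice, with a log2 fold change of -1.39 (SE 0.34, edgeR adjusted p = 0.0850), and without control mouse 2 it was -1.61 (SE 0.31, edgeR adjusted p = 0.0332). The part of macrophage markers in these values was not tested.

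Por stood beside other electron donors and heme-binding partners of P450 enzymes. Of 10 redox partners, Por included, 0 were called by edgeR and 5 had an unadjusted p under 0.05, all higher (Por, Cyb5a, Fdx1, Pgrmc1 and Pgrmc2), and DESeq2 called 3, Por, Fdx1 and Pgrmc1. Over all genes the shares were 25.7% at an unadjusted p under 0.05 and 11.0% by DESeq2. When control mouse 2 was left out, edgeR called 1 of the 10, Fdx1, beside 8.34% of all genes. The median log2 fold change of the 10 was 0.22, and 3 were negative, Cyb5b (-0.19), Cyb5r3 (-0.17) and Fdxr (-0.21). The groups of Cyb5r3 did not overlap, with the knockout lower. Fdx1, the ferredoxin that serves mitochondrial P450 enzymes such as Cyp27a1, was at 26.7, 31.6 and 25.8 CPM in control mice 1 to 3 and at 39.2, 44.5 and 34.8 CPM in aPU.1KO mice 1 to 3. The groups did not overlap, with a log2 fold change of 0.50 (SE 0.13, edgeR adjusted p = 0.0886). Pgrmc1, a heme-binding partner of P450 enzymes, had a log2 fold change of 0.49 (SE 0.14, edgeR adjusted p = 0.0980), again without overlap. Of the 15 adipocyte markers, 14 had a positive log2 fold change and Lep a negative one, with a median of 0.34. edgeR called 0 of them and DESeq2 called 9. Without control mouse 2 edgeR called 1 of them, as higher, beside 8.34% of all genes. The part of the adipocyte markers in these values was not tested.

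Among 13 genes of heme synthesis and breakdown, edgeR called 0 and DESeq2 called 0, with an unadjusted p under 0.05 for 4, of which 3 were higher, beside 25.7% of all genes, and a median log2 fold change of 0.04. Hmox1, the heme-degrading oxygenase, was at 74.9, 41.6 and 87.5 CPM in control mice 1 to 3 and at 50.6, 40.0 and 33.3 CPM in aPU.1KO mice 1 to 3. Alad, an early enzyme of heme synthesis, was at 34.6, 42.5 and 34.1 CPM in control mice and at 47.3, 75.9 and 43.2 CPM in aPU.1KO mice. The Hmox1 groups overlapped and the Alad groups did not, and their edgeR adjusted p were 0.172 and 0.164. When control mouse 2 was left out, edgeR called Hmox1 alone, as lower, beside 8.34% of all genes. Control mouse 2 was the lowest control for Hmox1 as for the macrophage sum, whose part was not tested.

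Of 15 regulators of P450 genes, 10 were tested and edgeR called 0, with 2 at an unadjusted p under 0.05 beside 25.7% of all genes, and DESeq2 called 1 of 12 beside 11.0%. That was Nr1h3, the liver X receptor alpha, at 101, 105 and 104 CPM in control mice 1 to 3 and at 132, 139 and 122 CPM in aPU.1KO mice 1 to 3 (log2 fold change 0.34, SE 0.08, edgeR adjusted p = 0.0783). Ppara, the fatty acid sensor that drives family 4 in liver, had a log2 fold change of 0.43 (SE 0.14, edgeR adjusted p = 0.118). Ahr, the aryl hydrocarbon receptor, was between 3.61 and 9.22 CPM in the 6 mice with no difference beyond their spread (edgeR adjusted p = 0.789).

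Of 7 target genes of Ahr, which include Cyp1a1 and Cyp1b1, 5 were tested and edgeR called 0, with 3 at an unadjusted p under 0.05, while DESeq2 called 1 of 6, Cyp1b1. Over all genes these shares were 25.7% and 11.0%. Without control mouse 2 edgeR called 1, Cyp1b1, as lower, beside 8.34% of all genes. The members of that list did not move one way, since 2 had a positive and 3 a negative log2 fold change. Tiparp, a strong Ahr target, was at 100.3, 107 and 89.4 CPM in control mice 1 to 3 and at 149, 157 and 99.2 CPM in aPU.1KO mice 1 to 3. Its edgeR adjusted p was 0.178.

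Around Cyp27a1 and Cyp7b1, 8 of 15 genes of the oxysterol and bile acid pathway were tested, edgeR called 0 with 3 at an unadjusted p under 0.05, and DESeq2, with 14 adjusted, called Hsd3b7 higher and Slc27a5 lower. All genes had 25.7% and 11.0%. Slc27a5, which edgeR did not test, had 24, 14 and 7 counts in control mice 1 to 3 and 0, 0 and 1 in aPU.1KO mice 1 to 3. It was kept through the control group, so its call is no support. Hsd3b7, which acts after the hydroxylases in bile acid synthesis, was at 64.9, 65.6 and 67.3 CPM in control mice 1 to 3 and at 92.1, 84.5 and 81.7 CPM in aPU.1KO mice 1 to 3. Its groups did not overlap, with a log2 fold change of 0.39 (SE 0.07, edgeR adjusted p = 0.0729). Cyp39a1, another oxysterol hydroxylase, was at 2.18, 2.01 and 1.90 CPM against 0.915, 1.27 and 1.66 CPM, with an edgeR adjusted p of 0.194.

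Downstream of the P450 reactions, 1 of 12 conjugating enzymes tested was called by edgeR, beside 0.237% of all genes. Gsta4, a glutathione transferase for aldehydes of lipid peroxidation, was at 10.9, 15.1 and 10.1 CPM in control mice 1 to 3 and at 64.2, 93.6 and 62.3 CPM in aPU.1KO mice 1 to 3. Every aPU.1KO mouse was above every control mouse, and the log2 fold change was 2.61 (SE 0.22, adjusted p = 0.0174 by edgeR quasi-likelihood). Gsta3 was at 82.2, 122 and 64.2 CPM against 191, 222 and 128 CPM, with an edgeR adjusted p of 0.101. Of the 14 genes of glutathione and glucuronide conjugation, 12 were tested with a median log2 fold change of 0.36, 7 had an unadjusted p under 0.05, and DESeq2 called 5 of 13 higher (Gsta3, Gsta4, Gstt1, Mgst1 and Mgst3), beside 25.7% and 11.0% of all genes. Without control mouse 2 edgeR called 2, Gsta3 and Gsta4, beside 8.34%. The part of the adipocyte markers, with a median of 0.34, was not tested. The 13 enzymes that handle epoxides and aldehydes had 0 calls by edgeR, 2 at an unadjusted p under 0.05 and 1, Adh5, by DESeq2, beside the same shares, with a median log2 fold change of 0.20. Without control mouse 2 edgeR called 0 of these, 0 of the regulators and 0 of the oxysterol pathway.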

How the data were processed

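RNA-seq was analysed for epididymal adipocytes of 3 control and 3 aPU.1KO mice. The authors quantified reads with Salmon (option validateMappings), summed transcripts to genes and deposited estimated counts. Rounding to whole numbers was applied to these before the fits. The submitters' processing notes name GRCm38, FastQC and Salmon, and versions were not given in the sources used here. Gene names, coordinates and lengths were taken from GENCODE M21 (GRCm38), which matched 35031 of 35122 identifiers. The unmatched genes hold 0.0367% of all counts. Of the file's columns, 2 are empty and were not used.

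In R 4.3.3, edgeR 4.0.16 (filterByExpr, TMM, glmQLFit and glmQLFTest with defaults, Benjamini-Hochberg adjustment) was fitted to 13925 genes, and calls are adjusted p under 0.05. The study's methods name DESeq2, so DESeq2 1.42.0 was an alternative, with limma-voom (limma 3.58.1), RLE and upper quartile scaling, no filter, at least 10 counts in every library, legacy = FALSE and leaving out each mouse. Log2 CPM used a prior count of 2, and per-length levels used the union of exons. Transcripts alike over at least 250 bases were found with BLAST 2.17.0. Total counts ran from 20550252 to 69283842 per library.

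Mice are numbered in accession order, which pairs no mice, and litters are not given in the labels. No 2 libraries of a group were duplicates (chi-square over degrees of freedom at least 19.0). The members and the 15 gene lists were chosen with earlier results of these data known. Genes named are the 8 members, other P450 genes called, the 5 with the highest level per length, the 2 to 4 with the largest change in each list, of which only those that bear on the members are printed, the 5 most like Cyp2e1 by each measure, and Spi1. Markers, the hepatic genes at 0 and genes that single out a statement are named beside these, chosen after their values were seen. One listed regulator is not reported here.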

Additional observations from a re-analysis of the deposited data

How the results depend on the processing

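The alternatives were 7 other settings and 6 fits that each left out a mouse. The number of members called, 0 in the fit described, was 2 with DESeq2 and ran from 0 to 1 with a mouse left out. The number of other P450 genes called, also 0, was 9 with DESeq2, 1 with limma-voom, 1 with no filter and 0 to 4 with a mouse left out. Calls of genes at or near 0 in every aPU.1KO library, Cyp3a11 with limma-voom and with no filter included, are no support. Cyp1b1 was called with DESeq2 (log2 fold change -1.11) and without control mouse 2, and ran from -1.37 to -0.90 with a mouse left out. Por was called with DESeq2 (0.53), and Por was higher in all 13 alternatives, from 0.41 to 0.61. Cyp4v3, with a log2 fold change near 0, changed sign with DESeq2 (-0.0092), RLE scaling (-0.010), limma-voom (-0.047), no filter (-0.013) and at least 10 counts in every library (-0.019), and ran from -0.16 to 0.23 with a mouse left out. The log2 fold change of Cyp2e1 ran from 1.08 to 2.65. Per length of the longest annotated transcript the level of Por was 143 in place of 93.8 CPM per kb, and Cyp4b1 and Cyp27a1, whose levels were close, changed places in the order of the 8 genes. Genes called overall ran from 0, without control mouse 1, to 1193, without control mouse 2, among the fits that left out a mouse. No paired analysis was made, since the labels give no shared replicate numbers and do not say which mice shared a litter. The depth limits Cyp7b1 and the hepatic P450 genes, which had few counts or 0 in aPU.1KO libraries. With 3 mice per group, a p that misses the threshold does not show that a gene did not differ, and the causes of these changes were not tested.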

Other observations

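Markers of other cells that epididymal fat could carry were also measured. The 10 epididymis and testis markers summed to between 0.044 and 1.15 CPM in control mice and between 0.045 and 0.947 CPM in aPU.1KO mice, and 7 of them were at 0 in all 6 libraries. The 10 mesothelial markers summed to 13.2, 24.7 and 5.71 CPM in control mice 1 to 3 and to 8.59, 10.8 and 8.62 CPM in aPU.1KO mice 1 to 3. edgeR called 0 of the 8 mesothelial markers tested, 0 had an unadjusted p under 0.05, and DESeq2 called 0. The 10 endothelial markers summed to between 633 and 921 CPM in control mice and between 375 and 827 CPM in aPU.1KO mice. Of these 10, edgeR called 0, 2 had an unadjusted p under 0.05 as lower, and DESeq2 called 1, Vwf, beside 25.7% and 11.0% of all genes. Without control mouse 2 edgeR called 0 of the markers of these 3 kinds, beside 8.34% of all genes.

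The correlation of Cyp2e1 with Por over the 6 mice was 0.860 on the log2 CPM scale, with 0.741 within groups. Those with Cyp2f2 were 0.626 and 0.623, with Cyp27a1 0.418 and 0.204, and with Cyp4b1 0.200 and 0.710. Those with Cyp4v3 were -0.449 and -0.546, and with Cyp1b1 -0.667 and -0.251. The points are 6 libraries of 2 groups, and these values are a description.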
